A study of Mus musculus with 24 samples.

Results

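Collagens are the triple-helical proteins of the extracellular matrix. The collagen genes described here are all protein-coding genes whose symbol has the form Col, digits, a, digits in at least 1 of the authors' 4 deposited comparison tables. The rule gave 40 of the 38355 genes counted, and 36 of the 40 were in all 4 tables. Col4a4, Col10a1, Col17a1 and Col28a1 carry such a symbol in the annotation but were outside those tables, with at most 22 reads in any library. They are not members and are not described further.

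The study sequenced polyadenylated RNA from CA1, a hippocampal subfield, dissected from C57BL/6J mice (3 to 5 months of age), in 24 libraries. All mice carried floxed alleles of Kat2a (Kat2a fl/fl), the gene of a histone acetyltransferase. Controls had the floxed alleles alone and the conditional knockout (cKO) also carried CamKII_alpha-cre+, a Cre recombinase under a promoter active in excitatory forebrain neurons. Each genotype was taken either naive, with no exposure, or with a 15 min exposure to novelty, which gave 6 naive and 5 novelty libraries from controls and 6 naive and 7 novelty libraries from cKO mice. The labels do not say that each library is a separate mouse, so p-values here measure the spread between libraries, part of which may be technical.

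Assigned reads ran from 10.701 to 35.755 M per library. Kat2a itself had 56 to 70.3 CPM (counts per M reads, after TMM scaling of library sizes) in the 11 control libraries and 31.2 to 39.3 CPM in the 13 cKO libraries, with no overlap. Every list of cell type markers had reads, and the CA1 pyramidal neuron markers summed to 1270 to 1540 CPM in control and 1110 to 1330 CPM in cKO libraries. Choroid plexus markers summed to 117 CPM in control naive library 4 and to at most 47.1 CPM elsewhere. In bulk tissue, fewer cells of a type and less RNA per cell cannot be told apart.

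Each collagen protein is made of 3 chains wound into a helix, and some types combine the products of several genes. Fibrillar collagens form the cross-striated fibres of connective tissue, fibril-associated collagens sit on their surface, type IV collagens form the meshwork of basement membranes, and type VI collagens form beaded filaments beside them. In brain, collagen RNA is known mainly from cells of blood vessels and meninges, while transmembrane collagens and several fibril-associated ones are also made by neurons. Chains are hydroxylated and folded in the endoplasmic reticulum, secreted, trimmed and cross-linked, so that RNA of the chains and of the enzymes is only the first step towards matrix.

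Per length of transcript, Col25a1 was the most abundant collagen RNA in CA1. Levels between genes are given as RPKM, the CPM per kilobase of all annotated exons of the gene, as mean ± SD over the 24 libraries. Col25a1, which encodes a transmembrane collagen of neurons whose shed part is found in amyloid plaques, stood at 8 ± 1.34 RPKM and made up 26.9% of all collagen CPM. It was followed by Col4a2 at 6.26 ± 0.785 RPKM, Col6a1 at 5.28 ± 1.45 RPKM and Col4a1 at 5.18 ± 0.68 RPKM. Col25a1 stood above Col4a2 by more than 1 SD of either, while Col4a2, Col6a1 and Col4a1 lay within 1 SD of Col6a1 of each other. In all, 13 members had a mean of 1 RPKM or more, 24 lay between 0.1 and 1 RPKM and 3 were below 0.1 RPKM. Of the 40, 39 had at least 1 read in every library, and Col4a6 was the exception. By class, transmembrane collagens gave 31.1% of collagen CPM, basement membrane chains 22.2%, fibrillar 17.7%, fibril-associated 14.2% and beaded filament chains 11.9%. The plot of levels by class shows that each of the larger classes spans more than an order of magnitude.

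**Figure D1:**
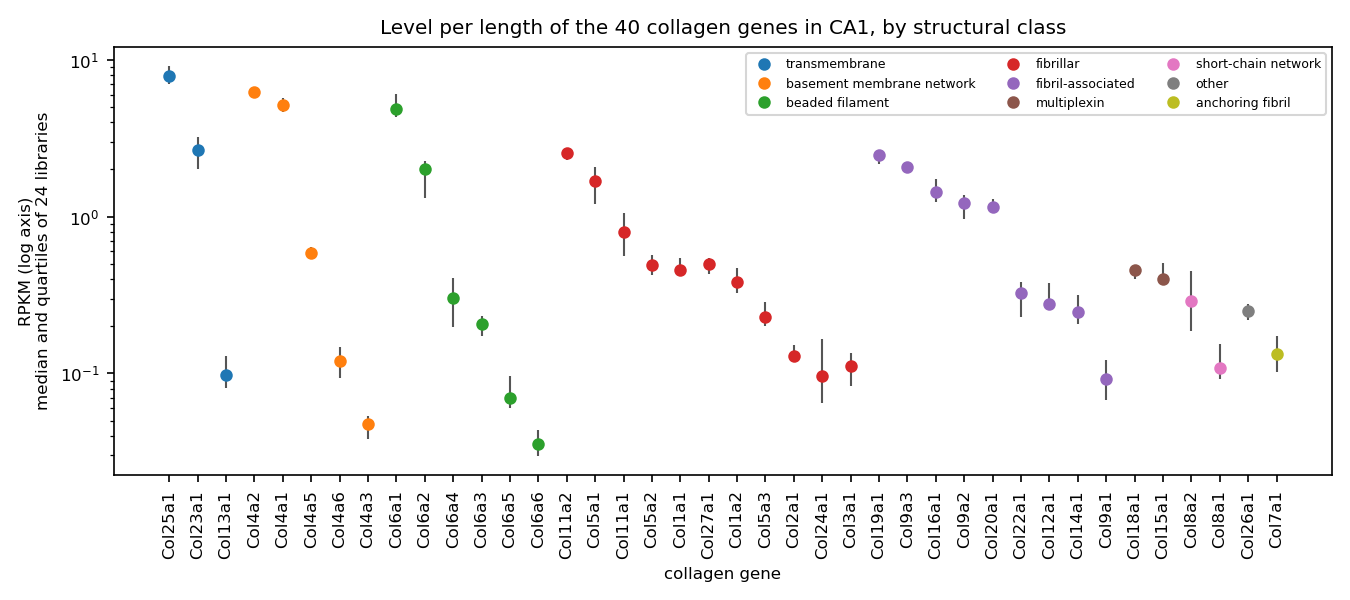
Level per length of the 40 collagen genes, in RPKM on a log axis, grouped by structural class (colours). Points are medians and bars the lower and upper quartiles over the 24 libraries. Col25a1, Col4a2, Col6a1 and Col4a1 stand highest, and Col4a3 and Col6a6 lowest.

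The summed CPM of all 40 members was 376 ± 35.6 CPM (SD, n = 6) in control naive, 361 ± 45.9 CPM (n = 5) in control novelty, 386 ± 18.6 CPM (n = 6) in cKO naive and 408 ± 32.1 CPM (n = 7) in cKO novelty libraries. The ranges of all 4 groups overlapped. Counts were tested with edgeR's quasi-likelihood test with Benjamini-Hochberg adjustment over all genes tested, at an adjusted p below 0.05, in 7 comparisons. These were novelty against naive in each genotype, cKO against control in each exposure, the interaction of novelty and genotype, and both effects averaged. In the 4 pairwise comparisons, between 36 and 39 members passed the filter on low counts. Col6a6 was left out of all 7, Col13a1 and Col4a3 of 3, and Col9a1 of 2.

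Col6a2, an obligate chain of type VI collagen, had the smallest adjusted p of any member between genotypes. After novelty Col6a2 (ENSMUSG00000020241, chr10:76595762-76623630) was 2-fold higher in cKO than in control. Col6a2 CPM ran from 10.5 to 17.6 with a median of 13 in the control naive libraries. It was 9.55, 8.9, 11.8, 12.4 and 8.93 in the control novelty libraries 1 to 5. It ran from 11 to 26 with a median of 17.7 in the cKO naive libraries, and from 16.8 to 26.3 with a median of 19.1 in the cKO novelty libraries. The lowest cKO novelty library lay above the highest control novelty library, while the naive groups overlapped. The log2 fold change of cKO against control after novelty was 1.0 (SE 0.13, adjusted p = 0.00081). In naive mice it was 0.36 (SE 0.20, adjusted p = 0.477), and averaged over exposures 0.67 (SE 0.13, adjusted p = 0.00127). The interaction was 0.64 (SE 0.26, adjusted p = 1), so the genotype effect was not shown to differ between exposures. The call after novelty was kept in 20 of 20 alternatives, from 0.92 to 1.07. Within library numbers 1 to 3 the difference of mean log2 CPM after novelty was 0.91, and within numbers 4 and above it was 0.99. The labels tie no batch to these numbers.

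With Col6a2, 3 of 36 members tested passed after novelty, all higher in cKO. Of all genes tested 4.53% passed in either direction and 2.13% were higher. Groups that did not overlap with cKO higher were found for 1 of 36 members, Col6a2, and for 1.4% of all genes. At an unadjusted p below 0.05 there were 9 of 36 members (25%) against 20.7% of all genes, a share near the background. Of the 36 members, 29 had a fold change above 0, with a median of 0.183 on the log2 scale, against a median of 0.008 over all genes, of which 47.3% were below 0. Without control novelty library 2 the median of the members was 0.099. This lean is a description, since members vary together between libraries. The same control novelty libraries also enter the comparison of novelty in control below. The authors' deposited table of this comparison called 5 of its 36 members, which were Col6a2, Col6a5, Col27a1, Col6a1 and Col5a3. It called 1312 of its 16057 genes.

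Col27a1 (ENSMUSG00000045672, chr4:63214004-63334991), a fibrillar collagen with a short helix, was also called. Col27a1 CPM ran from 4.88 to 7.89 with a median of 6.02 in the control naive libraries. It was 4.95, 4.37, 6.51, 6.02 and 4.61 in the control novelty libraries 1 to 5. It ran from 5.94 to 7.09 with a median of 6.31 in the cKO naive libraries, and from 5.63 to 8.18 with a median of 7.07 in the cKO novelty libraries. The groups overlapped after novelty, where the log2 fold change was 0.46 (SE 0.12, adjusted p = 0.0395). In naive mice it was 0.04 (SE 0.11, adjusted p = 0.918). Col5a3 (ENSMUSG00000004098, chr9:20770050-20815067), a minor type V chain, was called as well. Col5a3 CPM ran from 1.05 to 2.36 with a median of 1.48 in the control naive libraries. It was 1.43, 0.97, 1.1, 1.38 and 0.946 in the control novelty libraries 1 to 5. It ran from 1.36 to 2.02 with a median of 1.81 in the cKO naive libraries, and from 1.01 to 3.12 with a median of 1.88 in the cKO novelty libraries. Control novelty libraries were the lowest set, and cKO novelty library 3 lay inside their range. Its log2 fold change after novelty was 0.86 (SE 0.24, adjusted p = 0.0469), and in naive mice 0.04 (SE 0.19, adjusted p = 0.952). The interaction was 0.41 (SE 0.17) for Col27a1 and 0.82 (SE 0.31) for Col5a3, and neither passed. A genotype effect that differs between exposures was thus not shown for them. Within library numbers 1 to 3 the Col5a3 difference was 0.31, and within numbers 4 and above 1.02.

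Neither call of these fibrillar chains held in most alternatives. The Col27a1 call was lost when control novelty library 1, 2 or 5, or cKO novelty library 1, 2, 4, 5, 6 or 7 was left out, with log2 fold changes of 0.38 to 0.48 and adjusted p of 0.0503 to 0.13. The Col5a3 call was lost without control novelty library 1, 2, 3 or 5, or cKO novelty library 2, 4, 5, 6 or 7, at 0.73 to 0.96 and adjusted p of 0.0534 to 0.145. Leaving out a library also shrinks the groups. With library number as a term of 2 levels, adjusted p was 0.0617 for Col27a1 and 0.0841 for Col5a3.

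The other type VI chains were described next to Col6a2, since they build the same filament. Col6a1 (ENSMUSG00000001119, chr10:76708792-76726168), the partner chain with the highest level of the class, was not called. Col6a1 CPM ran from 18.1 to 30.4 with a median of 20.5 in the control naive libraries. It was 18.7, 13.3, 21.3, 22.5 and 15.2 in the control novelty libraries 1 to 5. It ran from 14.9 to 31.9 with a median of 21.2 in the cKO naive libraries, and from 18.6 to 39.6 with a median of 26.2 in the cKO novelty libraries. Of the cKO novelty libraries only number 3 lay inside the control novelty range, and the naive groups overlapped widely. The log2 fold change after novelty was 0.62 (SE 0.19, adjusted p = 0.0848), and in naive mice 0.01 (SE 0.18, adjusted p = 0.99). The interaction of Col6a1 was 0.61 (SE 0.27) and did not pass. After novelty Col6a1 passed by DESeq2 and by limma-voom. Group means are given in CPM (mean ± SD), first for controls, naive (n = 6) then novelty (n = 5), and next for cKO, naive (n = 6) then novelty (n = 7). For Col6a2 they were 13.6 ± 3.29, 10.3 ± 1.67, 17.6 ± 5.27 and 20.3 ± 3.52 CPM, and for Col6a1 22.4 ± 4.85, 18.2 ± 3.93, 22.7 ± 6.08 and 27.8 ± 6.92 CPM. Col6a3, the long chain that completes the classic trimer, had 2.21 ± 0.301, 2.34 ± 0.672, 2.44 ± 0.486 and 2.74 ± 0.55 CPM. Col6a4, Col6a5 and Col6a6 encode chains that can take the place of the Col6a3 product. Col6a4 had 2.1 ± 0.927, 2.93 ± 1.49, 3.09 ± 1.46 and 3.19 ± 1.96 CPM. Col6a5 had 0.781 ± 0.343, 0.404 ± 0.207, 0.781 ± 0.205 and 1.78 ± 1.67 CPM. Col6a6 had 0.28 ± 0.0386, 0.259 ± 0.117, 0.378 ± 0.12 and 0.626 ± 0.448 CPM. Of the 5 type VI genes tested after novelty, all had a fold change above 0, from 0.20 to 1.99, and 1 passed.

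The largest fold in this class belonged to Col6a5 and rested on few reads, 4 to 69 per library. It is described here after its values were seen. Col6a5 CPM ran from 0.567 to 1.46 with a median of 0.66 in the control naive libraries. It was 0.198, 0.599, 0.276, 0.653 and 0.296 in the control novelty libraries 1 to 5. It ran from 0.492 to 1.1 with a median of 0.805 in the cKO naive libraries, and from 0.462 to 5.19 with a median of 1.3 in the cKO novelty libraries. Among cKO novelty libraries, numbers 1, 2, 3 and 6 had 1.3 to 5.19 CPM and the other 3 had 0.462 to 0.651 CPM, inside the range of the control novelty libraries. The log2 fold change after novelty was 1.99 (SE 0.67, adjusted p = 0.119). It passed with DESeq2 at 2.12 (adjusted p = 0.00474), with library number as a term at 2.3 (edgeR adjusted p = 0.0251) and in 1 fit of all 24 libraries at 2.0 (edgeR adjusted p = 0.0252). Within library numbers 1 to 3 the difference was 2.76, and within numbers 4 and above it was 0.58.

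**Figure D2:**
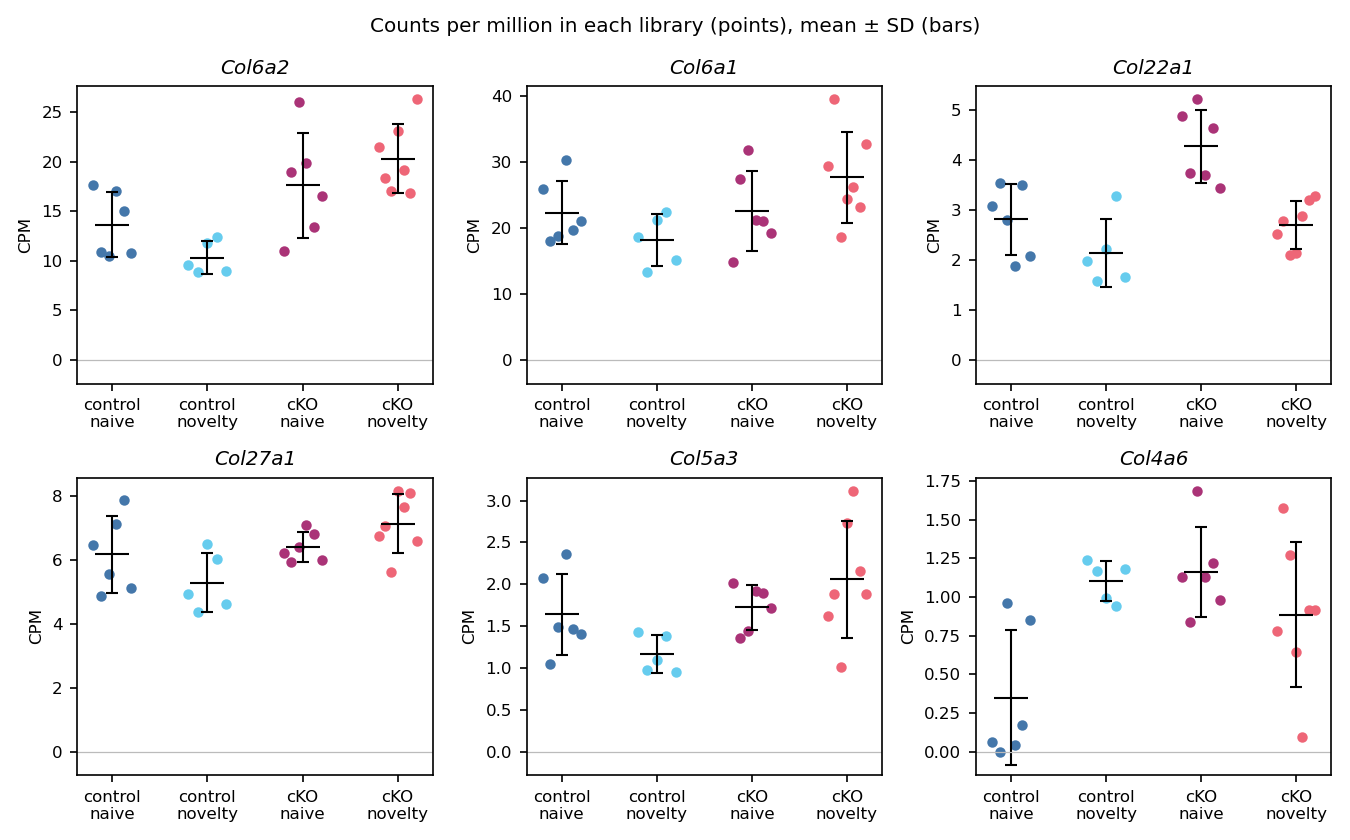
CPM in each library for 6 collagen genes (1 panel each), by genotype and exposure. Points are libraries, the horizontal mark is the group mean and bars are ± 1 SD. For Col6a2 all 7 cKO novelty libraries lie above all 5 control novelty libraries, for Col22a1 all 6 cKO naive libraries lie above all 7 cKO novelty libraries, and for Col4a6 5 libraries lie near 0.

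Col6a1 and Col6a2 lie in the same direction on chromosome 10, 85161 bases apart, and moved together between libraries. Their sequence before the start site is shown for both genes. It is taken from RefSeq promoter windows of GRCm38.p6 (250 bases before to 50 after the start), cut to the bases outside every annotated exon, and written 5′ to 3′ on the gene's strand. Capitals mark matches, on either strand, to 3 promoter motifs. The TATA box was searched as TATAAA. The second motif was the CCAAT box, searched by those letters. The GC box was searched as GGGCGG.
Col6a1 (chr10:76726169-76726294, minus strand): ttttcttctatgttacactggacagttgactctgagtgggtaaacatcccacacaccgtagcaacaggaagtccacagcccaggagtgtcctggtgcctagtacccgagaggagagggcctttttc
Col6a2 (chr10:76623631-76623880, minus strand): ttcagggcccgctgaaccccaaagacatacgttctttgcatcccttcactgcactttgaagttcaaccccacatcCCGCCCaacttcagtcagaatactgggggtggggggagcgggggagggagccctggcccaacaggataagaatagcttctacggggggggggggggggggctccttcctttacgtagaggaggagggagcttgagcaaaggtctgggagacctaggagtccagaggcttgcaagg
The 126 bases of Col6a1 held none of the motifs. At that length 6.26% of windows held a TATA box, 16.9% a CCAAT box and 13.5% a GC box. Bases of Col6a1 nearer the window's start site overlapped an exon and were not searched. The stretches of the 2 genes are therefore not like for like. The 250 bases of Col6a2 held 1 GC box, as did 32.7% of all 32817 promoter windows at that length. A match is a description of these letters only. Of the 40 members, 31 had an entry among the promoter windows. Col22a1 had none.

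Col22a1, a fibril-associated collagen known from the junction of muscle and tendon, was the only member called for novelty in cKO mice. Col22a1 (ENSMUSG00000079022, chr15:71795795-72034227) fell with novelty there. Col22a1 CPM ran from 1.88 to 3.54 with a median of 2.94 in the control naive libraries. It was 1.98, 1.57, 2.21, 3.27 and 1.66 in the control novelty libraries 1 to 5. It ran from 3.44 to 5.21 with a median of 4.19 in the cKO naive libraries, and from 2.09 to 3.28 with a median of 2.78 in the cKO novelty libraries. The cKO naive set was the highest and did not overlap the cKO novelty set, whereas the control groups overlapped. The log2 fold change of novelty in cKO was -0.66 (SE 0.14, adjusted p = 0.0157). In control it was -0.42 (SE 0.22, adjusted p = 0.511). Averaged over genotypes it was -0.54 (SE 0.13, adjusted p = 0.00811), and the interaction was -0.24 (SE 0.26, adjusted p = 1). So a difference of the novelty effect between genotypes was not shown.

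Between genotypes, Col22a1 was higher in cKO on average over exposures, with a log2 fold change of 0.50 (SE 0.13, adjusted p = 0.0108). In naive mice alone it was 0.62 (SE 0.17, adjusted p = 0.0969), the smallest p of any member there, and after novelty 0.38 (SE 0.18, adjusted p = 0.249). Within library numbers 1 to 3 the fall with novelty in cKO was -0.87, and within numbers 4 and above it was -0.45. In control, which enters the averaged call, the difference was -0.69 within numbers 1 to 3 and -0.04 within numbers 4 and above. Among the fits that left out 1 library, 13 of 13 kept the call in cKO. Over all alternatives 20 of 21 kept it. It was lost with a replicate block (edgeR adjusted p = 0.055), although library numbers did not pair the samples. Group means of Col22a1 were 2.81 ± 0.704, 2.14 ± 0.682, 4.27 ± 0.735 and 2.69 ± 0.475 CPM.

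For novelty in cKO, 1 of 37 members passed, against 2.41% of all genes in either direction and 0.484% lower. Groups without overlap and novelty lower were found for 1 of 37 members and 0.496% of genes. The authors' deposited table called 2 of its 38 members, Col22a1 and Col4a1, and 715 of its 16228 genes. For novelty in control, 0 of 36 members passed by edgeR, against 1.22% of all genes. At an unadjusted p below 0.05 there were 5 of 36 members, against 11% of all genes. DESeq2 called 0 and limma-voom called 1, Col4a6. Averaged over genotypes, 1 of 39 passed, Col22a1, against 6.55% of all genes.

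Although few members passed, the novelty fold changes of the collagens leaned in opposite directions in the 2 genotypes, which share no library. In control, 29 of 36 members were below 0, with a median of -0.178 on the log2 scale, against a median of -0.014 and 56.5% below 0 over all genes. In cKO, 26 of 37 were above 0, with a median of 0.093, against -0.01 over all genes, of which 53.9% were below 0. Of 36 members tested in both genotypes, 22 (61.1%) were below 0 in control and above 0 in cKO, as were 20.4% of all genes. A further 4 had the opposite pair of signs, 7 were below 0 in both and 3 above 0 in both. With DESeq2-style size factors 28 of 36 were below 0 in control, and with upper-quartile scaling 30. In cKO 26 and 25 of 37 were above 0. Leaving out 1 library left 24 to 30 of 36 below 0 in control, and without control naive library 1 the median there was -0.07. In cKO it left 22 to 30 of 37 or 38 above 0, with 22 of 38 without cKO naive library 5 or 6, and medians from 0.064 to 0.138. These counts are a description, since members can share cell types and vary together between libraries.

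The interaction tests this difference gene by gene. By edgeR 0 of 39 members passed, and 0.0% of all genes did, also under each of 31 alternatives that included DESeq2 and limma-voom. At an unadjusted p below 0.05 there were 9 of 39 members (23.1%), against 4.11% of all genes. The member with the smallest p was Col15a1 at 0.58, followed by Col4a6 at -1.99, Col6a5 at 1.97, Col4a3 at -1.02 and Col5a3 at 0.82, so their signs differed. Of these, Col4a3 had 3 to 20 reads per library and Col6a5 4 to 69. Col4a6 fell into 2 sets of libraries, described below. Of the 39, 29 had an interaction above 0, that is a novelty effect higher in cKO, with a median of 0.254 against 0.002 over all genes. Without control naive library 1 that median was 0.157. The type VI genes had a median interaction of 0.61 over 5 tested, of which 4 were above 0 and 1 below, at -0.39. The median was 0.4 for short-chain network genes, 0.39 for multiplexins and 0.29 for the fibrillar genes over 11 tested. It was 0.23 for fibril-associated, 0.21 for transmembrane and 0.06 for basement membrane genes. Col26a1 had 0.38 and Col7a1 0.31.

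**Figure D3:**
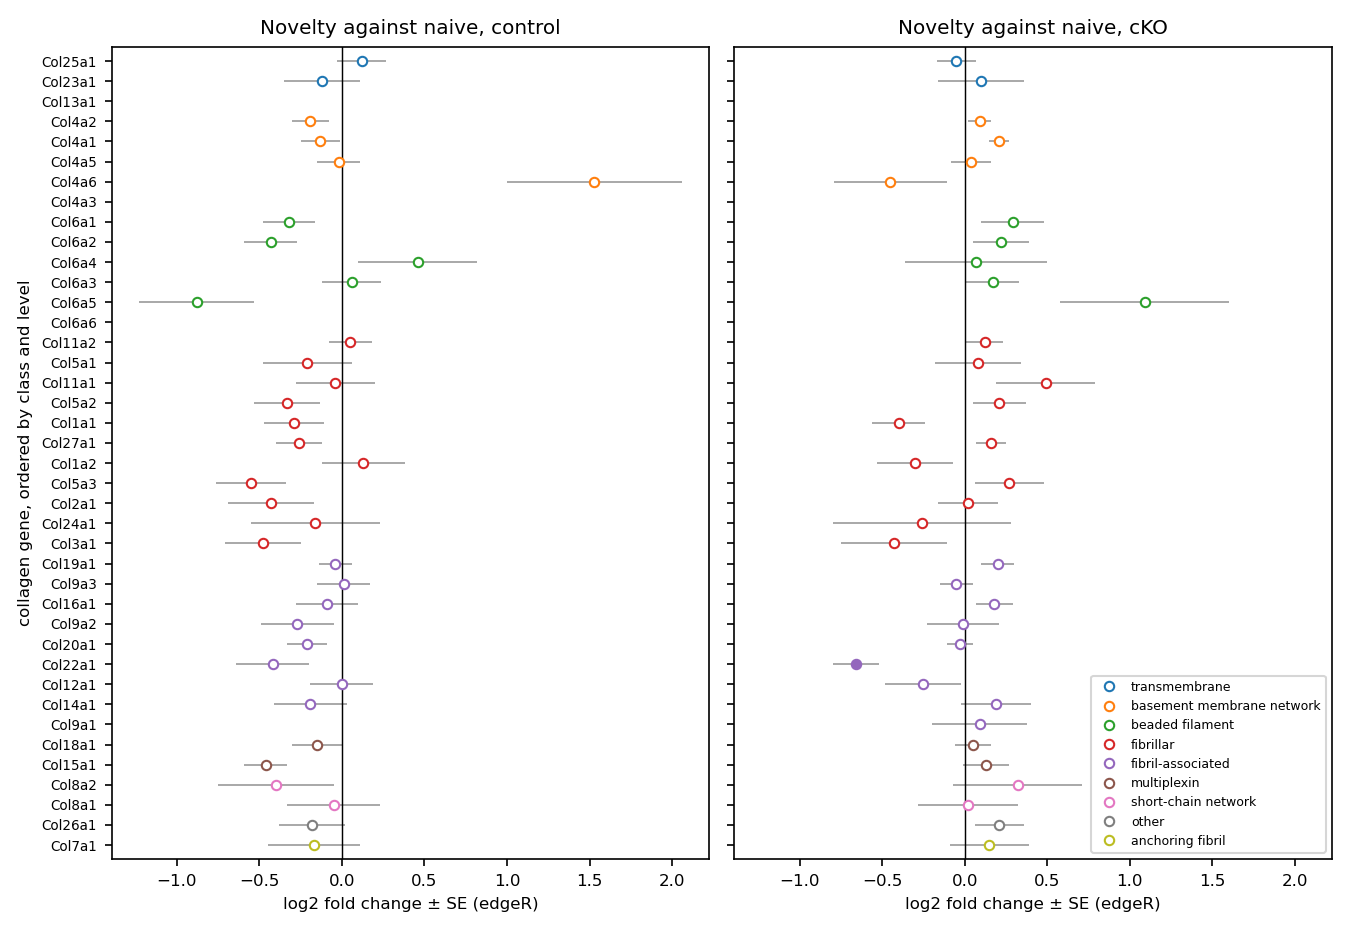
Log2 fold change of novelty against naive (x axis, ± SE, edgeR) for each collagen gene tested, in control (left) and cKO (right), ordered and coloured by class. Filled points passed at an adjusted p below 0.05, which only Col22a1 in cKO did. Most points lie left of 0 in control (29 of 36) and right of 0 in cKO (26 of 37).

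For genotype in naive mice, 0 of 39 members passed by edgeR, against 0.801% of all genes. At an unadjusted p below 0.05 there were 6 of 39, against 13.6% of all genes, while DESeq2 called 2 and limma-voom 0. The authors' deposited table called 2 of its 39 members, Col22a1 and Col11a1, and 515 of its 16217 genes. Col11a1, an alpha chain of type XI collagen, did not pass by edgeR, with a log2 fold change of -0.57 (SE 0.16, adjusted p = 0.106). Col11a1 CPM ran from 9.53 to 14.4 with a median of 12.5 in the control naive libraries. It was 17.1, 7.1, 6.89, 14.4 and 15.3 in the control novelty libraries 1 to 5. It ran from 5.12 to 10.4 with a median of 8.43 in the cKO naive libraries, and from 4.87 to 21.5 with a median of 9.7 in the cKO novelty libraries. The naive groups overlapped, and so did the groups after novelty. Averaged over exposures 2 of 39 members passed, Col6a2 and Col22a1, both higher in cKO, against 12% of all genes in either direction and 5.72% higher.

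None of the 5 basement membrane chains passed in any comparison of the main edgeR fits, though limma-voom called Col4a6 for novelty in control. Col4a1 and Col4a2 were among the most abundant members, and Col4a5, Col4a6 and Col4a3 stood at 0.584, 0.109 and 0.048 RPKM. Col4a1 and Col4a2 form the trimer found around vessels throughout the body. Col4a2 CPM ran from 38.1 to 52.6 with a median of 44.4 in the control naive libraries. It was 41.5, 32, 39.7, 49.8 and 35.2 in the control novelty libraries 1 to 5. It ran from 33.9 to 42.2 with a median of 39.8 in the cKO naive libraries, and from 34.4 to 46.7 with a median of 42.2 in the cKO novelty libraries. All 4 groups of Col4a2 (ENSMUSG00000031503, chr8:11312805-11449287) overlapped, with log2 fold changes from -0.19 to 0.09 (SE 0.07 to 0.11, adjusted p 0.346 to 0.643) in the 4 pairwise comparisons. Means of Col4a2 were 44.6 ± 6.09, 39.6 ± 6.8, 39.4 ± 2.89 and 41.8 ± 4.22 CPM, and of Col4a1 40.3 ± 5.79, 37.1 ± 6.66, 35.5 ± 2.24 and 41.1 ± 3.93 CPM. With novelty in cKO, Col4a1 had 0.21 (SE 0.06, edgeR adjusted p = 0.0919). It passed by DESeq2 and, by edgeR, without cKO novelty library 3. Col4a3, a chain known from the kidney's glomerular membrane, had 0.49 ± 0.137, 0.539 ± 0.103, 0.595 ± 0.218 and 0.325 ± 0.127 CPM. Col4a5, which can pair with Col4a3 or Col4a6 products, had 3.67 ± 0.571, 3.6 ± 0.534, 4.11 ± 0.621 and 4.22 ± 0.626 CPM.

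Col4a6 (ENSMUSG00000031273, chrX:141165403-141474076) fell into 2 sets of libraries, and it is described here after its values were seen. The low set lay mostly within the control naive group, though not all libraries of that group were low. In 5 libraries it had 0 to 3 reads, and in the other 19 it had 13 to 41. The low libraries were control naive 1, 2, 4 and 5 and cKO novelty 5, with 0.063, 0, 0.0438, 0.169 and 0.093 CPM. The remaining control naive libraries, 3 and 6, had 0.964 and 0.853 CPM. Control novelty libraries 1 to 5 had 1.24, 1.17, 0.993, 0.943 and 1.18 CPM, cKO naive libraries had 0.836 to 1.69 CPM, and the other cKO novelty libraries 0.647 to 1.58 CPM. A count of 0 in control naive library 2 allows up to 3 reads, or 0.287 CPM, by counting error alone. Col4a5, its neighbour, had 2.8 to 4.53 CPM in the 5 low libraries and 3.12 to 5.31 CPM in the others, so it did not split in this way. The fold changes of Col4a6 include this split, at 1.53 (SE 0.53, adjusted p = 0.257) for novelty in control and 1.60 (SE 0.52, adjusted p = 0.181) for genotype in naive mice. Its means were 0.349 ± 0.438, 1.11 ± 0.129, 1.16 ± 0.29 and 0.886 ± 0.47 CPM.

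Col4a5 and Col4a6 lie head to head on the X chromosome with 1308 bases between them, and their upstream sequences are shown because the first was steady and the second was not. Capitals mark the same 3 motifs.
Col4a5 (chrX:141475169-141475384, plus strand): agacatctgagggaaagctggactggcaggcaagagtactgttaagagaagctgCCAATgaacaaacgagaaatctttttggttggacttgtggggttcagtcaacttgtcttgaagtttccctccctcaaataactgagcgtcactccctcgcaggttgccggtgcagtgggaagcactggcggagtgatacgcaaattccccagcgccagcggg
Col4a6 (chrX:141474077-141474326, minus strand): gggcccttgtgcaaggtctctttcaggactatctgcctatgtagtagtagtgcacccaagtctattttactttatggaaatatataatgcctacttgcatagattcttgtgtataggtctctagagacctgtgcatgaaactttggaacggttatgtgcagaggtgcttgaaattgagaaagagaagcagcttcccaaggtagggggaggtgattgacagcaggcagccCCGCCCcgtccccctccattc
The 216 bases of Col4a5 held 1 CCAAT box, as did 30.5% of windows at that length. The 250 bases of Col4a6 held 1 GC box, again found in 32.7% of windows. Neither stretch held a TATA box, found in 9.8% of windows at 216 bases and 12.4% at 250 bases. For Col4a5 the bases nearest the window's start site overlapped an exon and were not searched, so a TATA box there would have been missed. Because the library kit does not mark strand, reads of Col4a6 and of transcripts antisense to it cannot be told apart.

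Among the fibrillar collagens, Col11a2 had the highest level per length, 2.61 ± 0.438 RPKM. Col11a2 CPM ran from 13.9 to 19.1 with a median of 16.7 in the control naive libraries. It was 14.7, 14.8, 16.4, 24.7 and 17.7 in the control novelty libraries 1 to 5. It ran from 16.4 to 20.1 with a median of 17.4 in the cKO naive libraries, and from 14.1 to 23.6 with a median of 18.7 in the cKO novelty libraries. All groups of Col11a2 (ENSMUSG00000024330, chr17:34039437-34066685) overlapped, with log2 fold changes from 0.05 to 0.15 (SE 0.08 to 0.16, adjusted p 0.641 to 0.962). The classic fibre chains were far lower. Col1a1 and Col1a2, the chains of type I collagen of bone, skin and vessel walls, had 3.21 ± 0.883, 2.73 ± 0.575, 3.95 ± 1.19 and 2.96 ± 0.428 CPM and 4.54 ± 1.6, 5.08 ± 1.64, 6.07 ± 3.02 and 4.92 ± 0.589 CPM. Col3a1, the chain of type III collagen of extensible tissue, had 1.33 ± 0.298, 0.92 ± 0.31, 1.23 ± 0.632 and 0.913 ± 0.319 CPM. Col2a1, the main cartilage collagen, had 1.3 ± 0.174, 1 ± 0.489, 1.27 ± 0.318 and 1.28 ± 0.224 CPM. The means of Col11a1 were 12.2 ± 1.71, 12.1 ± 4.8, 8.19 ± 2.11 and 11.5 ± 5.7 CPM, and of Col11a2 16.8 ± 2, 17.7 ± 4.11, 17.7 ± 1.37 and 19.3 ± 3.86 CPM. Type V collagen is built into type I fibres and limits their diameter. Its chains had 13.7 ± 5.15, 12 ± 3.4, 15.8 ± 6.9 and 16.5 ± 4.38 CPM for Col5a1, 5.35 ± 1.33, 4.36 ± 1.22, 4.23 ± 0.892 and 4.88 ± 1.06 CPM for Col5a2 and 1.64 ± 0.484, 1.17 ± 0.228, 1.72 ± 0.269 and 2.06 ± 0.698 CPM for Col5a3. Col24a1 and Col27a1, a pair of fibrillar genes with interrupted helices, had 1.04 ± 0.383, 0.872 ± 0.589, 0.866 ± 0.763 and 0.689 ± 0.385 CPM and 6.18 ± 1.19, 5.29 ± 0.93, 6.41 ± 0.456 and 7.15 ± 0.911 CPM. Of the 11 fibrillar genes tested after novelty, 7 were above 0 and 2 passed.

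Fibril-associated collagens were led by Col19a1, a collagen of interneurons with a known part in forming synapses, at 2.44 ± 0.335 RPKM. Col19a1 CPM ran from 13.3 to 18.4 with a median of 17 in the control naive libraries. It was 16.2, 14.4, 17.4, 19.1 and 14.1 in the control novelty libraries 1 to 5. It ran from 13 to 19.7 with a median of 15.5 in the cKO naive libraries, and from 14.9 to 20.5 with a median of 18.5 in the cKO novelty libraries. The groups of Col19a1 (ENSMUSG00000026141, chr1:24261890-24587472) overlapped throughout, with log2 fold changes from -0.06 to 0.20 (SE 0.09 to 0.11, adjusted p 0.273 to 0.962). Its means were 16.5 ± 2.11, 16.2 ± 2.09, 15.9 ± 2.65 and 18.2 ± 2.11 CPM. Type IX chains coat cartilage fibrils. They had 0.493 ± 0.271, 0.415 ± 0.136, 0.535 ± 0.162 and 0.555 ± 0.253 CPM for Col9a1, 3.82 ± 1.28, 3.27 ± 0.819, 4.2 ± 1.23 and 4.14 ± 1.33 CPM for Col9a2 and 7.8 ± 2.02, 8.09 ± 1.24, 8.33 ± 0.637 and 8.04 ± 1.21 CPM for Col9a3. Col12a1 and Col14a1, found on fibres of tendon and skin, had 5.25 ± 1.57, 5.18 ± 1.23, 4.79 ± 1.78 and 3.97 ± 1.01 CPM and 1.92 ± 0.437, 1.68 ± 0.486, 1.6 ± 0.472 and 1.82 ± 0.497 CPM. Col16a1 had 9.05 ± 2.48, 8.74 ± 2.15, 9.78 ± 1.6 and 11 ± 1.72 CPM, and Col20a1 6.6 ± 1.09, 5.78 ± 0.804, 6.09 ± 0.692 and 5.94 ± 0.22 CPM. Of the 9 genes of the class, Col22a1 alone passed in any of the 7 comparisons.

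None of the transmembrane collagens passed in any comparison. Col25a1 CPM ran from 83.2 to 120 with a median of 93.1 in the control naive libraries. It was 125, 84.6, 76.5, 124 and 117 in the control novelty libraries 1 to 5. It ran from 79.8 to 131 with a median of 113 in the cKO naive libraries, and from 78.8 to 132 with a median of 98.9 in the cKO novelty libraries. The 4 groups of Col25a1 (ENSMUSG00000058897, chr3:130180891-130599877) overlapped, with log2 fold changes from -0.05 to 0.16 (SE 0.11 to 0.15, adjusted p 0.589 to 0.977). Its means were 96.6 ± 14.1, 106 ± 23.2, 108 ± 17.7 and 104 ± 17.3 CPM. Col23a1 had 13.6 ± 3.79, 12.6 ± 4.21, 16.3 ± 7.45 and 17.4 ± 3.44 CPM. Col13a1, known from the junction of nerve and muscle, had 0.525 ± 0.192, 0.43 ± 0.0557, 0.518 ± 0.167 and 0.489 ± 0.218 CPM.

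The multiplexins release anti-angiogenic fragments such as endostatin, which comes from Col18a1. Col18a1 CPM ran from 2.1 to 4.03 with a median of 3.46 in the control naive libraries. It was 2.82, 2.62, 3.47, 3.48 and 2.66 in the control novelty libraries 1 to 5. It ran from 2.58 to 3.52 with a median of 3.04 in the cKO naive libraries, and from 2.7 to 3.63 with a median of 3.19 in the cKO novelty libraries. Col18a1 (ENSMUSG00000001435, chr10:77052178-77166548) showed log2 fold changes from -0.15 to 0.08 (SE 0.11 to 0.15, adjusted p 0.76 to 0.889), and means of 3.26 ± 0.654, 3.01 ± 0.432, 3.02 ± 0.38 and 3.13 ± 0.302 CPM. Col15a1 (ENSMUSG00000028339, chr4:47208161-47313167) had the smallest p of any member for novelty in control and for the interaction. Col15a1 CPM ran from 2.54 to 3.9 with a median of 3.28 in the control naive libraries. It was 2.03, 2.45, 2.37, 2.83 and 2.25 in the control novelty libraries 1 to 5. It ran from 1.99 to 3.1 with a median of 2.32 in the cKO naive libraries, and from 2.2 to 3.25 with a median of 2.57 in the cKO novelty libraries. The control naive set was the highest, and it overlapped control novelty in 1 library, number 5. The log2 fold change of novelty was -0.46 (SE 0.13, adjusted p = 0.131) in control and 0.13 (SE 0.14, adjusted p = 0.763) in cKO. The interaction was 0.58 (SE 0.19, adjusted p = 1). Neither passed. Means of Col15a1 were 3.26 ± 0.433, 2.39 ± 0.296, 2.46 ± 0.49 and 2.67 ± 0.414 CPM.

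The remaining members had low levels and none was called. Col8a1 and Col8a2 form hexagonal lattices, as under the corneal endothelium. Col8a2 CPM ran from 0.382 to 2.19 with a median of 1.4 in the control naive libraries. It was 0.445, 1.46, 0.772, 1.09 and 1.54 in the control novelty libraries 1 to 5. It ran from 0.492 to 2.13 with a median of 1.26 in the cKO naive libraries, and from 0.57 to 2.71 with a median of 2.01 in the cKO novelty libraries. Values of Col8a2 (ENSMUSG00000056174, chr4:126286793-126314330) overlapped between all groups, with log2 fold changes from -0.40 to 0.65 (SE 0.35 to 0.40, adjusted p 0.386 to 0.968). Means were 1.36 ± 0.68, 1.06 ± 0.46, 1.35 ± 0.673 and 1.69 ± 0.902 CPM for Col8a2 and 0.952 ± 0.252, 0.894 ± 0.437, 1.01 ± 0.541 and 0.995 ± 0.326 CPM for Col8a1. Col7a1 forms the anchoring fibrils that hold skin to its basement membrane. Col7a1 CPM ran from 0.975 to 2.2 with a median of 1.37 in the control naive libraries. It was 1.29, 0.628, 1.38, 2.18 and 1.36 in the control novelty libraries 1 to 5. It ran from 0.981 to 2.3 with a median of 1.36 in the cKO naive libraries, and from 0.839 to 2.03 with a median of 1.73 in the cKO novelty libraries. Col7a1 (ENSMUSG00000025650, chr9:108953586-108984875) had log2 fold changes from -0.17 to 0.30 (SE 0.24 to 0.29, adjusted p 0.593 to 0.985) and means of 1.43 ± 0.449, 1.37 ± 0.55, 1.42 ± 0.482 and 1.55 ± 0.504 CPM. Col26a1 CPM ran from 1.53 to 3.84 with a median of 2.12 in the control naive libraries. It was 1.63, 2.2, 2.32, 2.32 and 1.77 in the control novelty libraries 1 to 5. It ran from 1.41 to 2.14 with a median of 1.85 in the cKO naive libraries, and from 1.35 to 2.58 with a median of 2.11 in the cKO novelty libraries. Col26a1 (ENSMUSG00000004415, chr5:136741759-136883209) had log2 fold changes from -0.35 to 0.21 (SE 0.15 to 0.20, adjusted p 0.448 to 0.926) and means of 2.3 ± 0.8, 2.05 ± 0.323, 1.81 ± 0.253 and 2.07 ± 0.391 CPM.

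Chains that build the same protein were compared across the 24 libraries after the group means were taken out, in 10 pairs. Pearson's r was tested by permuting libraries within groups 100000 times, two-sided, with adjustment over the 10 pairs. Col4a1 and Col4a2 had r = 0.86 (Spearman's rho 0.8, permutation p = 3e-05, adjusted 0.0003), and 0.83 without the 2 libraries farthest from the median of Col4a1. Col6a1 and Col6a2 had r = 0.73 (rho 0.71, permutation p = 0.00029, adjusted 0.00145), and 0.83 without the 2 farthest. Col1a1 and Col1a2 had r = 0.67 (rho 0.63, permutation p = 0.00294, adjusted 0.0098), and 0.55 without the 2 farthest. Col5a1 and Col5a2 had r = 0.57 (rho 0.52, permutation p = 0.00543, adjusted 0.0136), and 0.52 without the 2 farthest. So 4 of 10 pairs passed. The test asks whether a pair varies together at all, not whether partners do so more than other collagen pairs. With the mean of each library-number set within each group taken out too, r of the 4 pairs was 0.95, 0.74, 0.72 and 0.55. Permuting within those smaller sets gave adjusted p of 0.0007, 0.0036, 0.0523 and 0.0583. Type I and type V lost the call there, although their r stayed close to the first values. The permutation p of rho, adjusted over the pairs, was 0.0009, 0.002, 0.0139 and 0.0282 for the same 4 pairs.

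The other pairs did not pass. Col11a1 with Col11a2 had r = 0.48 (rho 0.44, permutation p = 0.0636, adjusted 0.127), and Col6a1 with Col6a3 r = 0.21 (rho 0.29, permutation p = 0.368, adjusted 0.46). For Col9a2 with Col9a3, r = 0.36 (rho 0.11, permutation p = 0.132, adjusted 0.189) dropped to 0.04 without the 2 farthest libraries. Col9a1 with Col9a2 had r = -0.13 (permutation p = 0.59, adjusted 0.656), and Col8a1 with Col8a2 r = -0.06 (permutation p = 0.785, adjusted 0.785). For Col4a5 with Col4a6 no r is given, since Col4a6 fell into 2 sets of libraries. The adjusted permutation p of rho was 0.12 or more in each of these. Library depth and cell makeup are shared by all genes of a library. As a description, the median r over all 741 pairs of the 39 members tested was 0.17, and the closest pair was Col5a1 with Col6a2 at 0.88 over 24 libraries, chains of different proteins. Col4a1 with Col4a2 ranked 2 of the 741 pairs and Col6a1 with Col6a2 ranked 10. Between them stood non-partners such as Col4a2 with Col27a1 at 0.77 and Col12a1 with Col24a1 at 0.75. The type I and type V pairs were outside the first 12. Partners were therefore not shown to be closer than other collagen pairs.

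**Figure D4:**
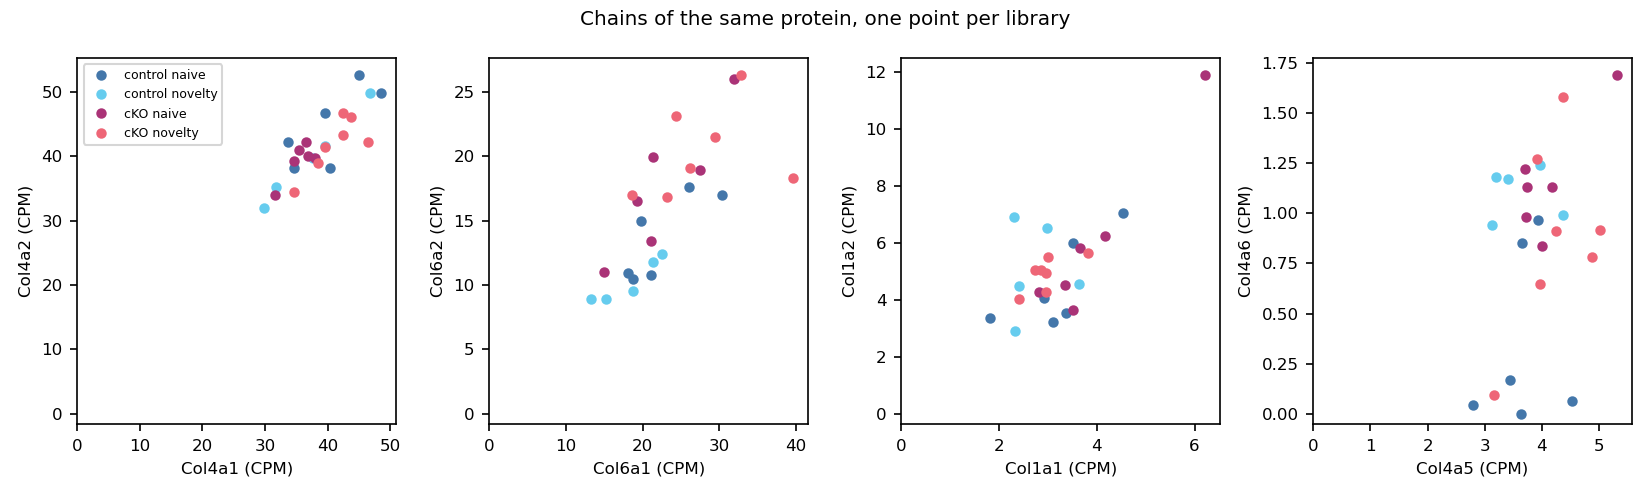
CPM of chain partners, 1 point per library, coloured by group. Both axes start at or just below 0. Col4a1 and Col4a2, and Col6a1 and Col6a2, rise together, while Col4a6 is near 0 in 5 libraries at ordinary levels of Col4a5.

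Genes that modify, secrete, cross-link, bind or degrade collagen, and the laminins and other partners in basement membranes, were listed as 70 genes, of which 62 were tested. After novelty, 1 of the 62 was higher in cKO and 0 lower, where 4.53% of all genes passed, so the list did not stand above the background. The gene was P4ha2. It encodes a prolyl hydroxylase subunit that stabilises the helix, and its genotype effect there was 0.30 on the log2 scale (SE 0.06, edgeR adjusted p = 0.0105). With novelty in cKO, 3 of 62 were higher and 0 lower, where 2.41% of all genes passed. They were P4ha1, another prolyl hydroxylase subunit, at 0.53 (SE 0.04, edgeR adjusted p = 5.43e-06), P4ha2 at 0.43 (SE 0.06, adjusted p = 0.001) and Lamc1, the common laminin gamma chain, at 0.23 (SE 0.05, adjusted p = 0.0112). With novelty in control, where 1.22% of all genes passed, 1 of 62 was higher and 0 lower, P4ha1 at 0.46 (SE 0.06, edgeR adjusted p = 0.000564). In naive mice 0 of the 62 passed for genotype by edgeR, where 0.801% of all genes did.

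Averaged over genotypes, both hydroxylase subunits rose with novelty, by 0.50 (P4ha1) and 0.31 (P4ha2) on the log2 scale, a comparison in which no collagen gene passed upwards. P4ha1 averaged 48.9 ± 1.9 CPM in naive and 67.1 ± 6.19 CPM in novelty controls. In cKO it averaged 46.1 ± 2.74 CPM naive and 66.6 ± 3.38 CPM with novelty. In this comparison 4 of 62 were higher with novelty and 1 lower, where 6.55% of all genes passed, again near the background. These were P4ha1, P4ha2, Colgalt1, which adds sugars to collagen, and Lamc1, and the lower one was Lair1, an inhibitory collagen receptor of immune cells, at -0.18 (SE 0.05, edgeR adjusted p = 0.0386). Averaged over exposures, 5 of 62 were higher in cKO and 2 lower, where 12% of all genes passed, so this count is near the background. The higher ones were P4ha2, Colgalt1, Lamb1, Lama5 and Loxl1, a cross-linking oxidase at 0.97 (SE 0.25, edgeR adjusted p = 0.0129). The lower ones were Timp4, a metalloproteinase inhibitor, and Nid1, which links laminin to type IV collagen, at -0.30 (SE 0.10, edgeR adjusted p = 0.045).

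Markers of the cells that can hold collagen RNA were set beside these results, from lists that contain no collagen gene. Leptomeningeal fibroblast markers, a list of 12 genes, summed to 104 to 190 CPM in control novelty and 113 to 190 CPM in cKO novelty libraries, and 0 of 11 tested passed for genotype after novelty. In naive libraries they summed to 136 to 198 CPM in control and 122 to 224 CPM in cKO. Dcn made up most of these sums, with means of 112 CPM in control naive and 91.6 CPM in cKO naive libraries. Apart from Foxc2, the other fibroblast markers had higher means in cKO naive than in control naive libraries. After novelty Dcn had means of 84.7 CPM in control and 93.9 CPM in cKO, and the other markers went both ways. Endothelial markers summed to 246 to 280 CPM in control novelty and 206 to 274 CPM in cKO novelty libraries, and 1 of 10 passed, lower in cKO. Pericyte markers summed to 181 to 191 CPM and 140 to 194 CPM, with 0 of 7 passing. None of these markers was at 0 in all libraries. Interneuron markers, 2 of 9, CA1 pyramidal markers, 1 of 7, and subiculum markers, 1 of 4, passed as lower in cKO after novelty. Of all genes, 4.53% passed in either direction there. Every marker list outside these and the endothelial one had no gene passing in that comparison. Subiculum markers summed to 116 to 187 CPM in control novelty and 86 to 172 CPM in cKO novelty libraries. CA1 pyramidal markers summed to 1320 to 1440 CPM in control novelty and 1110 to 1260 CPM in cKO novelty libraries, with no overlap, and oligodendrocyte markers to 4500 to 5480 CPM and 3090 to 5970 CPM. With novelty in cKO, 0 of 11 fibroblast, 0 of 10 endothelial and 0 of 7 pericyte markers passed. The part of cell makeup in the differences of Col6a2 and Col22a1 was not tested.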

How the data were processed

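RNA of 24 CA1 libraries was analysed from the deposited count tables, which hold whole-number read counts per Ensembl gene. The authors made them with STAR 2.3.0, HTSeq and GRCm38.p2 among the tools and builds named, per the submitters' processing notes, with no role given for each. The authors' 4 deposited comparison tables hold a base mean (a normalised count signal), log2 fold changes and p-values with adjusted p-values from DESeq2, per the file headers and the submitters' processing notes. Those tables chose the members and named genes, and are quoted only where named.

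Counts were tested with edgeR 4.0.16 in R 4.3.3 (TMM scaling, a filter on low counts with a minimum of 10, quasi-likelihood test, Benjamini-Hochberg adjustment over all genes tested, threshold 0.05). Each pairwise comparison was fitted on its own groups. The interaction and the averaged effects came from 1 fit of all 24 libraries. The 5 summary rows of each count table, which name no gene, were left out. CPM and RPKM were computed from the counts, with exon lengths from GENCODE M21 (GRCm38), which can include isoforms not expressed here. Coordinates are those of the deposited tables, and 35 of 40 members have the same ends in M21. Alternatives were DESeq2 1.42.0, limma 3.58.1 (voom), other scalings, no filter, a library-number term, a replicate block and leaving out each library. The scripts were tested on simulated data. The kit does not mark strand. Depth was 10.701 to 35.755 M reads, and its counting error is largest for members with few reads.

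The members and gene lists were chosen with earlier results of these data known. Values by library (all 5 for control novelty, the lowest, median and highest for the larger groups) are given for members called in any comparison, the leading member of each class and the member with the smallest p in each comparison. The other gene lists were to name up to 4 genes per comparison, and all that passed are named. Col6a1 beyond its level, Col6a5, Col4a6, Col11a1, the most alike pair and the promoters shown were chosen after their values were seen. Library numbers did not pair the samples.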

Additional observations from a re-analysis of the deposited data

Results flagged for a closer look

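In each of 160 sets of 5 to 7 libraries (40 genes in 4 groups), the highest or lowest library was compared with the rest by its gap to the nearest library. Chance flags about 1 in 20 such sets, and 11 (6.88%) were flagged here. In cKO naive library 3, Col1a2 stood at 11.9 CPM (nearest library 6.26), Col4a5 at 5.31 CPM (4.18) and Col16a1 at 12.8 CPM (9.85), all high. In control naive library 1, Col12a1 stood at 8.18 CPM (5.47) and Col26a1 at 3.84 CPM (2.31). Col6a5 stood at 1.46 CPM (0.765) in control naive library 6, and Col8a1 at 1.65 CPM (0.856) in control novelty library 3. In cKO novelty libraries, Col1a1 stood at 3.81 CPM (3.01) in number 5, Col6a6 at 1.58 CPM (0.696) in number 2 and Col12a1 at 6.1 CPM (4.13) in number 4. Col4a2 was low in cKO naive library 2, at 33.9 CPM (39.3).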

How the results depend on the processing

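The Col6a2 call after novelty was kept in 20 of 20 alternatives, and the Col22a1 call for novelty in cKO in 20 of 21. With DESeq2 the collagens called were 2 for novelty in cKO, 2 for genotype in naive mice, 5 after novelty and 5 for genotype averaged over exposures. Limma-voom called 1 for novelty in control, and upper-quartile scaling 4 for genotype averaged over exposures. Leaving out 1 library at a time gave 1 to 2 calls for novelty in cKO (2 without cKO novelty library 3), 1 to 4 for genotype after novelty (4 without cKO novelty library 3), 1 to 2 for novelty averaged over genotypes (2 without control naive library 2) and 2 to 4 for genotype averaged over exposures (4 without control naive library 4 or cKO novelty library 3). Same-numbered libraries did not deviate together, with 3 of 22 correlations above 0.1 and 4 of 22 highest with their own number. A replicate block gave 0 calls for novelty in cKO, where Col22a1 had -0.71 (edgeR adjusted p = 0.055), 1 after novelty and 5 for genotype averaged over exposures. With library-number means removed, r was 0.72 for Col1a1 with Col1a2 and 0.55 for Col5a1 with Col5a2, and both missed the threshold. Over all genes, calls for novelty in control were 196 (377 by DESeq2, 97 with the block), for novelty in cKO 393 (653 and 207), for genotype in naive mice 131 (465 and 70) and for genotype after novelty 733 (1168 and 398). Leaving out 1 library gave 113 (without control novelty library 2) to 255 for novelty in control, 238 (without cKO naive library 2) to 452 for novelty in cKO, 40 (without control naive library 6) to 166 for genotype in naive mice and 324 (without control novelty library 2) to 1025 for genotype after novelty. In 1 fit of all 24 libraries calls were 305 for novelty in control and 322 for genotype in naive mice. No result reversed. The cause of these changes was not tested.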
